A study of Mus musculus with 17 samples.

Results

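The galectin genes Lgals1, Lgals3, Lgals7, Lgals8 and Lgals9 and the galectin-binding gene Lgals3bp were followed in all 17 libraries. They were chosen by name, with no measured value in the rule, and are 6 of the 30406 genes that the libraries share. Their levels are CPM, the gene's unique molecular identifiers (UMIs) divided by all UMIs of the cells summed and multiplied by 1000000. A UMI marks 1 captured RNA molecule near its 3′ end. Because each molecule is counted at its end, CPM follows the number of molecules and not gene length, but capture differs between genes, and levels are therefore compared between libraries and cell classes within 1 gene.

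Galectins are lectins that bind beta-galactoside sugars on glycoproteins and glycolipids. They are made in the cytosol and leave the cell without a signal peptide. Outside the cell they cross-link surface glycoproteins such as integrins and T cell receptors, and inside the cell they gather on damaged lysosomes whose lumenal sugars have become exposed. Galectin-1 and galectin-7 are prototype galectins with a single sugar-binding domain that pair into dimers, galectin-3 is the chimeric member whose collagen-like tail allows it to form larger assemblies, and galectin-8 and galectin-9 are tandem-repeat members with a pair of sugar-binding domains on 1 chain. The Lgals3bp product is not a galectin but a secreted, heavily glycosylated protein that galectins bind. In skin and kidney, galectin-1 is known as a product of mesenchymal and lymphoid cells that can trigger T cell death, galectin-3 as a macrophage and epithelial product linked to fibrosis, and galectin-7 as a protein of stratified epithelia.

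The study asked how SARA, an endosomal protein encoded by Zfyve9 that was first described as an adaptor of TGF-beta receptor signalling, alters fibrosis when it is overexpressed in PDGFRb lineage cells. All mice were 8 weeks old and carried PDGFRb-Cre together with the Z/EG reporter, which gives green fluorescence after Cre recombination. Tissue was dissociated and GFP+ cells were sorted before droplet sequencing. The label SARATg stands for mice with a human SARA cDNA at Rosa26 that Cre switches on, and SARAWT for littermates without it. The Pdgfrb promoter is also active in leukocytes of the embryo, and the sorted cells held leukocytes and epithelial cells besides stroma, so cells were placed in classes by marker genes. Skin was taken from mice given PBS (3 SARAWT and 1 SARATg library) or bleomycin, a DNA-breaking drug that causes dermal fibrosis (3 SARAWT and 1 SARATg library). The labels give bleomycin as 20 mg/kg under the skin 3 times a week for 2 weeks, whereas the methods of the study give daily injections. Kidney was taken from mice given vehicle (3 SARAWT and 2 SARATg libraries) or aristolochic acid (AA), a plant toxin of the proximal tubule, at 5 mg/kg into the peritoneum 3 times a week for 3 weeks (3 SARAWT libraries and 1 SARATg library). Nothing in the labels says that libraries of a group came from separate animals, and p-values measure only the spread between libraries, which may be technical.

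Skin libraries held 781 to 6546 kept cells and 3355217 to 69765525 UMIs, and kidney libraries held 4808 to 11773 kept cells and 28660151 to 137093834 UMIs. Marker genes placed 22627 of 30075 kept skin cells and 65506 of 71324 kept kidney cells in a class. The Schwann cell gate was set aside because 3 genes of other classes were among its leading genes, and the gate of the kidney distal convoluted tubule held as many leading genes of other classes as of its own. The SARA transgene did not follow every label. Among skin SARAWT libraries, Zfyve9 was at 621 CPM in the library labelled PBS 3 against 7.75 to 26.0 CPM in the other 5, and human ZFYVE9, which the gene list of 4 SARAWT libraries contains, was at 845 CPM in the library labelled PBS 1 against 89.3 to 190 CPM in the other 3. The SARATg skin libraries had 314 and 224 CPM of Zfyve9. In kidney, Zfyve9 was at 167 CPM in the library labelled SARAWT AA 1 and at 20.7 CPM in the library labelled SARATg AA 1, against 93.4 and 91.7 CPM in SARATg vehicle libraries and 11.1 to 31.8 CPM in the other SARAWT libraries. The kidney library labelled SARAWT vehicle 3 stood apart from vehicle 1 and 2 and close to the AA libraries. Its proximal tubule cells had 63.4 CPM of the tubule injury gene Havcr1 (vehicle 1 and 2: 0.979 and 3.63 CPM, SARAWT AA: 20.8 to 33.4 CPM), and T cells made up 42.8% of its kept cells (vehicle 1 and 2: 2.74% and 3.49%). In the skin library labelled SARAWT PBS 2, 55.5% of barcodes also occurred in another skin library, against 22.1% or less in the other skin libraries and 1.66% to 2.13% in the kidney libraries. In skin the libraries labelled PBS 1 and PBS 3 are 2 of the 3 SARAWT PBS libraries, and leaving both out leaves PBS 2 alone, with 781 kept cells, which is then assumed to vary like the other libraries. An adjusted p above 0.05 in such a fit says little.

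The files count reads on mm10, which is the GRCm38 assembly, and GENCODE places Lgals1 (ENSMUSG00000068220) at chr15:78926725-78930465 on the plus strand, Lgals3 (ENSMUSG00000050335) at chr14:47367751-47386160 on the plus strand and Lgals7 (ENSMUSG00000053522) at chr7:28863853-28866284 on the plus strand. Lgals8 (ENSMUSG00000057554) lies at chr13:12439415-12464944, Lgals9 (ENSMUSG00000001123) at chr11:78962974-78984946 and Lgals3bp (ENSMUSG00000033880) at chr11:118392751-118402092, all 3 on the minus strand. Lgals9 and Lgals3bp are known as interferon-inducible genes. In skin macrophages and dendritic cells both were higher in each bleomycin library than in each PBS library, as were 6.65% and 8.11% of all genes. The promoter search was chosen after this order was seen, and a part of interferon in the order was not tested. The RefSeq promoters of the members were searched for the core of the interferon-stimulated response element, which is GAAA, any 2 bases and GAAA again. Its shorter form AANNGAAA was searched as well, both on the 2 strands of the 250 bases before the RefSeq start (GRCm38.p6). RefSeq promoter entries were matched for 5 of 6 members, and Lgals1 is named only. The longer form was found in the Lgals9 promoter, on the opposite strand and 55 bases before the start, and the shorter form in the Lgals3bp promoter, 14 bases before the start. The RefSeq starts used for both genes lie downstream of their GENCODE starts. The 55 bases for Lgals9 are therefore counted past the end of the stretch printed below, and the Lgals3bp match falls inside the gene span given above. The 228 bases upstream of the first Lgals9 exon, chr11:78984947-78985174, and 30 bases around the Lgals3bp match, chr11:118401960-118401989, are printed 5′ to 3′ on the minus strand, with the match in capitals.
Lgals9: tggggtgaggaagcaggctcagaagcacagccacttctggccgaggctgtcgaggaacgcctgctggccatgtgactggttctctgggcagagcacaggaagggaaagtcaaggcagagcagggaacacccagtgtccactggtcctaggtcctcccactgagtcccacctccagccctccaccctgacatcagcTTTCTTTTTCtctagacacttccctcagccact
Lgals3bp: tcatgtgttttctgaaAATCGAAActaggt
The longer form occurred in 978 of 32851 promoters of this length (2.98%) and the shorter form in 6999 (21.3%), so a match to the shorter form was common. Lgals9 also held 2 matches to the shorter form, 1 of which overlaps the longer match, and these letters were not found in the windows of Lgals3, Lgals7 and Lgals8. A match of letters is a description of the sequence and does not show that a factor binds there.

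**Figure D1:**
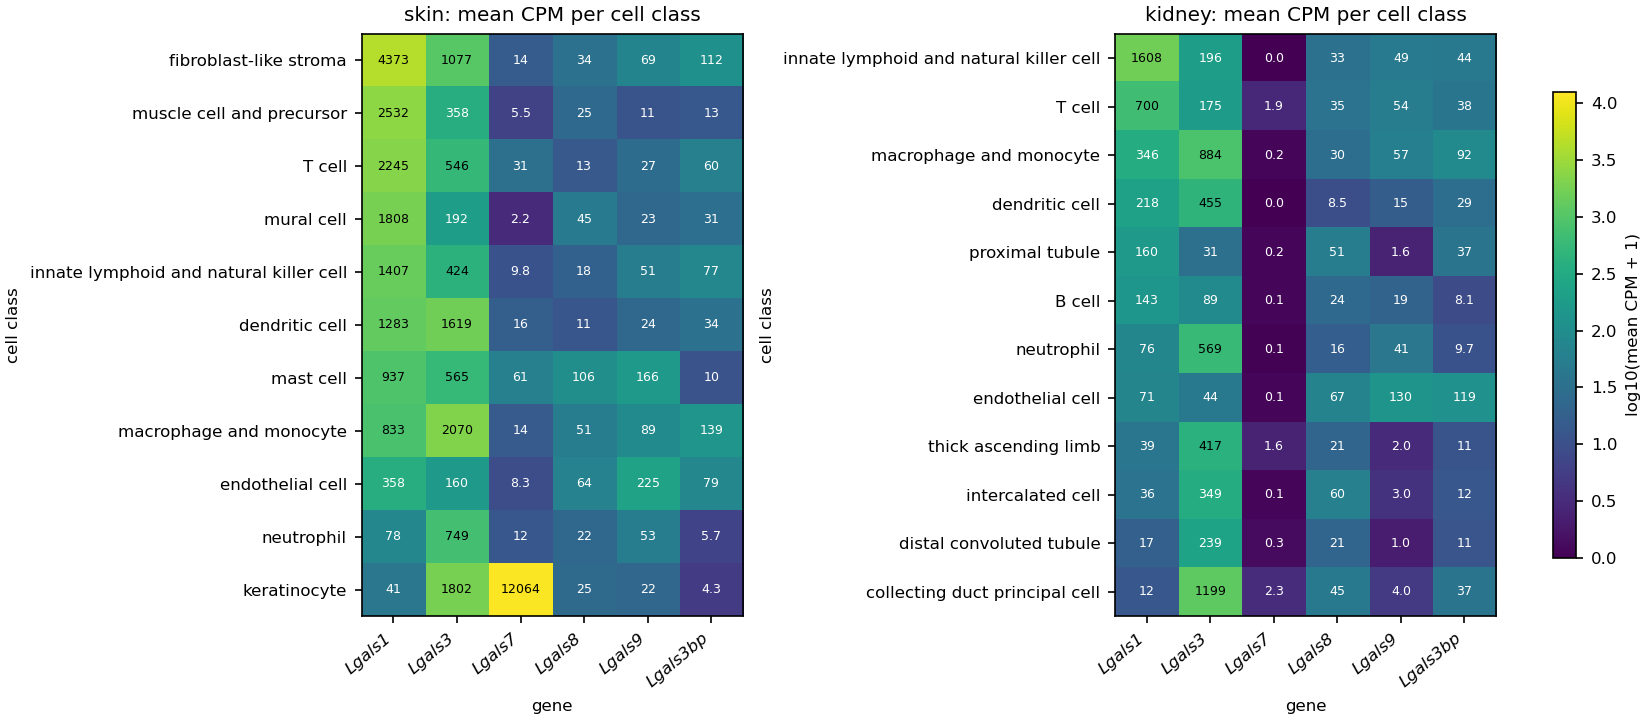
Mean CPM over libraries of each member (columns) in each cell class of skin and kidney with at least 3 libraries of at least 10 cells (rows), with the colour on a log10(mean CPM + 1) scale. Lgals7 is at the bright end of the scale in skin keratinocytes (mean 12064 CPM) and at 60.8 CPM or less in the other classes plotted, Lgals1 is highest in skin stroma (4373 CPM), and Lgals3 is high in skin macrophages (2070 CPM) and keratinocytes (1802 CPM) and in the collecting duct of the kidney (1199 CPM).

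The members had distinct distributions over cell classes, described here as means over the libraries of a tissue with at least 10 cells of the class, for classes with at least 3 such libraries. The kidney mural cells (2 libraries), mast cells and stroma (1 library each) and the skin melanocytes and B cells (2 libraries and 1 library) stayed out of the order, although some of their levels would have placed them high in it. Among these were 89.2 CPM of Lgals7 in kidney stroma, 791 CPM of Lgals1 in kidney mural cells, 1527 CPM of Lgals3 in kidney mast cells, 2037 CPM of Lgals3 in skin melanocytes and 151 CPM of Lgals7 in skin B cells. In skin, Lgals1 was highest in fibroblast-like stroma (4373 CPM), followed by muscle cells and precursors (2532 CPM), T cells (2245 CPM) and mural cells, the pericytes and smooth muscle cells of vessel walls (1808 CPM), and lowest in keratinocytes (40.7 CPM). These means pool treatments and genotypes. Over libraries Lgals1 ranged from 1150 to 8343 CPM in stroma, 802 to 4302 CPM in muscle cells and 1798 to 2565 CPM in T cells. It was higher in muscle cells than in T cells in 4 of 7 libraries (mean log2 difference -0.12). In kidney it was highest in innate lymphoid and natural killer cells (1608 CPM) and T cells (700 CPM, 319 to 1255 CPM over libraries), and the mean in proximal tubule was 160 CPM.

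Lgals3 was highest in macrophages (2070 CPM), keratinocytes (1802 CPM) and dendritic cells (1619 CPM) of the skin, with 1077 CPM in stroma. In kidney the collecting duct principal cells led with 1199 CPM, ahead of macrophages with 884 CPM and neutrophils with 569 CPM, the thick ascending limb had 417 CPM, and the proximal tubule had 31.0 CPM. Lgals7 was a keratinocyte gene. It had a mean of 12064 CPM in keratinocytes and 60.8 CPM in mast cells, the next class of the order, and keratinocytes held 83.8% to 98.4% of all Lgals7 UMIs of the kept skin cells. A Lgals7 UMI was found in 96.6% to 100% of keratinocytes per library and in 0.625% to 9.97% of macrophages, which should lack the gene, and after each cell was thinned to 1000 UMIs these shares were 89.3% to 100% and 0% to 1.62%. The median UMIs per cell were 3691 to 17308.5 in keratinocytes and 4621 to 12556 in macrophages. Kidney Lgals7 was at 0.0224 to 1.96 CPM over all cells.

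Lgals8, whose product marks damaged endosomes for autophagy, was highest in mast cells (106 CPM), endothelial cells (64.3 CPM) and macrophages (51.1 CPM) of the skin and in endothelial cells (66.8 CPM), intercalated cells (60.0 CPM) and proximal tubule (51.0 CPM) of the kidney, and lowest in dendritic cells of both tissues (11.4 and 8.53 CPM). In skin, Lgals8 was higher in endothelial cells than in macrophages in 2 of 8 libraries, and the medians were 46.1 and 50.9 CPM. Lgals9 was highest in endothelial cells of both tissues, with 225 CPM in skin and 130 CPM in kidney. Mast cells (166 CPM) and macrophages (89.1 CPM) followed in skin, and macrophages (57.2 CPM) and T cells (53.6 CPM) in kidney. Lgals3bp was highest in macrophages (139 CPM), stroma (112 CPM) and endothelial cells (78.9 CPM) of the skin and in endothelial cells (119 CPM) and macrophages (91.6 CPM) of the kidney. Lgals1 was higher in stroma than in muscle cells in 7 of 7 skin libraries with both classes, Lgals7 was higher in keratinocytes than in mast cells in 7 of 7, and in kidney endothelial cells exceeded macrophages in 8 of 8 libraries for both Lgals9 and Lgals3bp. By a 2-sided exact sign-flip permutation test over libraries, no neighbouring pair in the order passed an adjusted threshold of 0.05. With so few libraries this test can hardly pass after adjustment, and the missed threshold says nothing about whether neighbours differ. The order came from the means of these same libraries, of all treatments and genotypes. Counts of libraries and unadjusted p-values therefore lean toward it and are a description. The mean log2 difference with its SD over libraries was 7.79 ± 1.07 (n = 7) for Lgals7 in keratinocytes over mast cells and 0.44 ± 0.16 (n = 8) for Lgals3bp in kidney endothelial cells over macrophages, values of log2(CPM + 1). In skin 0 of 60 pairs passed, 11 at an unadjusted p under 0.05, with 0.0078 the smallest p found and 0.134 its adjusted value. In kidney 0 of 66 passed, 18 at an unadjusted p under 0.05, with 0.0039 and 0.0645.

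Bleomycin against PBS in SARAWT skin was tested in 11 classes, for 47 pairs of member and class. Lgals1 in stroma was the only pair that passed an adjusted p of 0.05 in edgeR's quasi-likelihood test with Benjamini-Hochberg adjustment over all genes of the fit. Of the 47 pairs, 19 were under an unadjusted p of 0.05 and 32 had a log2 fold change above 0. Among all genes, 2746 of 11092 in stroma, 1133 of 11538 in macrophages and 65 of 2584 in mast cells were under an unadjusted p of 0.05. Stroma had the highest such share of the classes and mast cells the lowest. The share of all genes that passed was 2.64% of 11092 genes in stroma, 0.317% in endothelial cells, 0.0186% in muscle cells, 0.0103% in dendritic cells, and 0% in macrophages, neutrophils, T cells, innate lymphoid cells, mast cells, mural cells and keratinocytes. With UMIs summed over all kept cells of a library, 0 of 6 members passed in edgeR (0% of 15334 genes), 5 of 6 were under an unadjusted p of 0.05 and 2802 of the 15334 genes were, and DESeq2 called 3 members (8.61% of genes). In such sums, fewer cells of a type and less RNA per cell cannot be told apart. The median log2 fold change of all genes lay within 0.09 of 0 in each fit.

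Lgals1, the T cell-regulating prototype galectin, was higher in each bleomycin library than in each PBS library in stroma, mural cells, muscle cells and endothelial cells, whereas the groups overlapped in each leukocyte class tested. This order is a description. The share of all tested genes that were higher in each bleomycin library than in each PBS library was 14.3% in stroma, 11.7% in mural cells, 20.9% in muscle cells and 8.52% in endothelial cells. Stroma had 3419, 2043 and 1869.5 CPM in the PBS libraries and 7183, 5408 and 5564 CPM in the bleomycin libraries. Each bleomycin library lay above each PBS library. The means were 2444 ± 849 and 6052 ± 983 CPM (SD, n = 3 each), and the log2 fold change was 1.34 ± 0.24 (SE, edgeR adjusted p = 0.0419). These sums rested on 706, 176 and 368 stroma cells with PBS and on 165, 222 and 160 cells with bleomycin. Lgals1 was the member that passed here, among 2.64% of the genes tested in stroma. The study reports a noncanonical pericyte cluster that strongly expressed this gene (written Lgal1 there) and was depleted after bleomycin in SARAWT mice. The stroma class was not split into subsets here, and the part of their shares in the summed level was not tested.

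The call for stroma Lgals1 depended on the libraries used. Its log2 fold change was 1.07 to 1.61 over the alternatives, but its edgeR adjusted p was above 0.05 when any single library other than PBS 1 was left out (0.0605 to 0.173), when cells with barcodes shared between libraries were removed (0.252) and without the cells of highest UMI totals (0.188). Without the libraries labelled PBS 1 and PBS 3, whose SARA levels went against their label, it was 1.59 ± 0.35 (SE) with an edgeR adjusted p of 0.206, from a fit in which PBS 2 was the lone PBS library. With the replicate number as a block it was 1.36 ± 0.13 (SE) and the edgeR adjusted p was 0.0120 (9.07% of genes called). A Lgals1 UMI was found in 91.9%, 93.8% and 95.1% of stroma cells with PBS and in 92.7%, 90.1% and 95% with bleomycin. After thinning to 1000 UMIs a cell these shares were 76.1%, 74.7% and 65.7% with PBS and 87.8%, 86.9% and 80.0% with bleomycin, against 0% to 14.3% in keratinocytes and 0% to 9.88% in neutrophils. Cells with fewer UMIs dropped out, which left 603, 87 and 362 stroma cells with PBS and 98, 122 and 155 with bleomycin. The thinned shares of the bleomycin libraries were all above those of the PBS libraries, whereas the shares before thinning overlapped. Median UMIs per stroma cell were 10331, 992 and 13467.5 with PBS and 1514, 1110 and 13345 with bleomycin. The summed macrophage markers in stroma were 380, 197 and 244 CPM with PBS and 139, 216 and 137 CPM with bleomycin, 1.22% to 4.95% of their level in macrophages, and their part in the result was not tested.

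**Figure D2:**
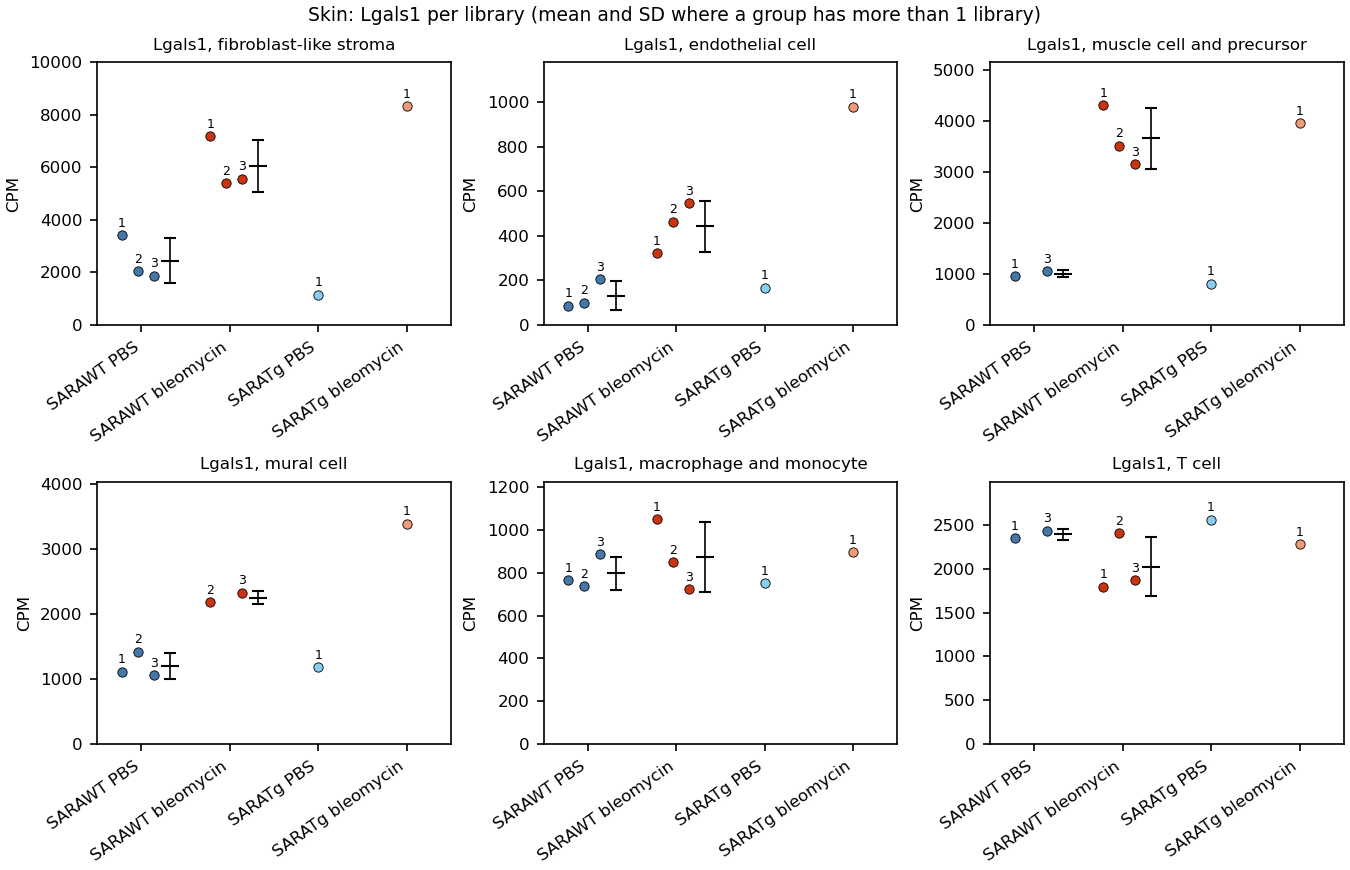
Lgals1 in CPM (vertical axis, linear from 0) in 6 skin cell classes, 1 point per library with at least 10 cells of the class, by genotype and treatment, with the mean and SD of SARAWT groups beside the points. In stroma the SARAWT bleomycin libraries lie between 5408 and 7183 CPM, above the SARAWT PBS libraries with 3419 CPM or less, and the macrophage and T cell panels overlap between treatments.

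Other vessel and mesenchymal classes had the same order of groups without passing the adjusted test in edgeR. DESeq2 called Lgals1 in mural (0.742% of genes called), endothelial (2.36%) and muscle cells (1.86%). Endothelial cells had 85.0, 99.1 and 204 CPM with PBS and 321, 463 and 547 CPM with bleomycin, a log2 fold change of 1.74 ± 0.43 (SE, edgeR adjusted p = 0.105). The groups did not overlap, with 72, 16 and 63 endothelial cells in the PBS libraries and 13, 12 and 38 in the bleomycin libraries. Muscle cells and precursors had 948 and 1055 CPM in PBS 1 and 3 and 4302, 3514 and 3146 CPM in the 3 bleomycin libraries, again without overlap (log2 fold change 1.90 ± 0.40 SE, edgeR adjusted p = 0.0826). Mural cells, the class that holds canonical pericytes, had 1114, 1420.4 and 1054 CPM with PBS and 2176 and 2325 CPM in bleomycin 2 and 3 (log2 fold change 0.98 ± 0.23 SE, edgeR adjusted p = 0.245). The summed stroma markers in endothelial cells were 162, 99.1 and 33.7 CPM with PBS and 14.6, 34.3 and 16.7 CPM with bleomycin, 0.367% or less of their level in stroma.

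In leukocytes and keratinocytes the Lgals1 levels of the groups overlapped, and a difference between classes was not tested. T cells, which galectin-1 can kill from outside, had 2353 and 2439.5 CPM of Lgals1 in PBS 1 and 3 and 1798, 2409 and 1869 CPM with bleomycin (log2 fold change -0.18 ± 0.20 SE, edgeR adjusted p = 0.923). Macrophages had 766, 739 and 887 CPM with PBS and 1049, 848 and 724 CPM with bleomycin (log2 fold change 0.19 ± 0.22 SE, edgeR adjusted p = 0.822). The groups overlapped in both classes, in dendritic cells (1628, 851 and 1260.4 against 1064, 1497 and 940.3 CPM, log2 fold change -0.02 ± 0.26 SE, edgeR adjusted p = 0.996) and in keratinocytes (75.4, 30.6 and 55.5 against 53.2, 6.62 and 21.3 CPM, log2 fold change -1.26 ± 0.55 SE, edgeR adjusted p = 0.434). Over all cells Lgals1 was at 1772, 1178 and 1179.8 CPM with PBS and 2271, 1739 and 1429.9 CPM with bleomycin, and the groups overlapped, with PBS 1 above 2 of the 3 bleomycin libraries (log2 fold change 0.55 ± 0.23 SE, edgeR adjusted p = 0.262). Stroma held 53.4%, 42.0% and 17.1% of the Lgals1 UMIs of kept cells with PBS and 39.2%, 22.9% and 19.3% with bleomycin.

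Lgals3bp, the secreted galectin ligand, had log2 fold changes above 0 in all 5 classes in which it was tested (median 1.41). None passed the adjusted test in edgeR, whereas DESeq2 called 3 of the 5, macrophages (1.62% of genes called), dendritic cells (1.32%) and stroma (8.43%). Macrophages had 85.9, 67.3 and 57.1 CPM with PBS and 282, 234 and 154 CPM with bleomycin. The lowest bleomycin library was above the highest PBS library, the means were 70.1 ± 14.6 and 223 ± 64.6 CPM (SD, n = 3 each), and the log2 fold change was 1.74 ± 0.26 (SE, edgeR adjusted p = 0.156, 0% of 11538 genes called). Dendritic cells had 14.4, 11.8 and 25.2 CPM with PBS and 60.8, 46.7 and 42.6 CPM with bleomycin (log2 fold change 1.48 ± 0.31 SE, edgeR adjusted p = 0.187). Stroma had 63.9, 74.5 and 63.1 CPM with PBS and 264, 165 and 97.1 CPM with bleomycin (log2 fold change 1.41 ± 0.36 SE, edgeR adjusted p = 0.0694). In both of these classes, too, each bleomycin library exceeded each PBS library, an order that 6.65% of genes had in macrophages, 8.11% in dendritic cells and 14.3% in stroma. Over all cells the levels were 50.8, 43.4 and 35.2 CPM with PBS and 175, 137 and 81.4 CPM with bleomycin, without overlap (log2 fold change 1.76 ± 0.28 SE, edgeR adjusted p = 0.0570). Of all 15334 genes, 6.28% were higher in each bleomycin library. Macrophages held 34.4% to 51.4% of Lgals3bp UMIs with PBS and 59.9% to 67.4% with bleomycin, and stroma 19.4% to 41.5% and 5.90% to 18.7%.

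The share of macrophages with a Lgals3bp UMI had the same order of groups. It was 36.6%, 20.0% and 37.1% with PBS and 66.2%, 62.6% and 58.8% with bleomycin, or 7.91%, 3.23% and 4.18% against 22.0%, 17.5% and 12.4% after thinning to 1000 UMIs. Neutrophils, a class known for little of this gene, gave 0% to 2.94% (thinned 0% to 1.23%), and every macrophage share was above theirs. The summed stroma markers in macrophages were 161, 147 and 50.9 CPM with PBS and 35.6, 44.6 and 70.4 CPM with bleomycin.

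Lgals9, a tandem-repeat galectin that binds the T cell surface protein TIM-3, was also higher in each bleomycin library than in each PBS library in macrophages, dendritic cells, endothelial cells and keratinocytes. So were 6.65%, 8.11%, 8.52% and 5.41% of all genes tested there. In keratinocytes, at 29.0 CPM or less, its log2 fold change was 1.19 ± 0.47 (SE, edgeR adjusted p = 0.399). Macrophages had 59.0, 55.9 and 61.9 CPM with PBS and 139, 134 and 88.9 CPM with bleomycin (means 58.9 ± 2.99 and 121 ± 27.7 CPM, SD, n = 3 each). The log2 fold change was 1.09 ± 0.22 (SE) and the edgeR adjusted p was 0.227. Dendritic cells had 15.5, 5.91 and 12.6 CPM with PBS and 49.8, 40.3 and 21.1 CPM with bleomycin (log2 fold change 1.58 ± 0.38 SE, edgeR adjusted p = 0.233). Endothelial cells had 174, 37.2 and 90.5 CPM with PBS and 510.4, 189 and 217 CPM with bleomycin (log2 fold change 1.46 ± 0.49 SE, edgeR adjusted p = 0.216). Stroma, by contrast, had 54.9, 87.1 and 58.0 CPM with PBS and 105, 83.2 and 40.6 CPM with bleomycin, which overlapped (log2 fold change 0.24 ± 0.37 SE, edgeR adjusted p = 0.727). Over all cells Lgals9 was at 43.5, 43.1 and 32.9 CPM with PBS and 90.8, 79.9 and 48.7 CPM with bleomycin (log2 fold change 1.03 ± 0.24 SE, edgeR adjusted p = 0.0966). Of the 8 classes in which Lgals9 was tested, 7 had a log2 fold change above 0 (median 0.79).

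**Figure D3:**
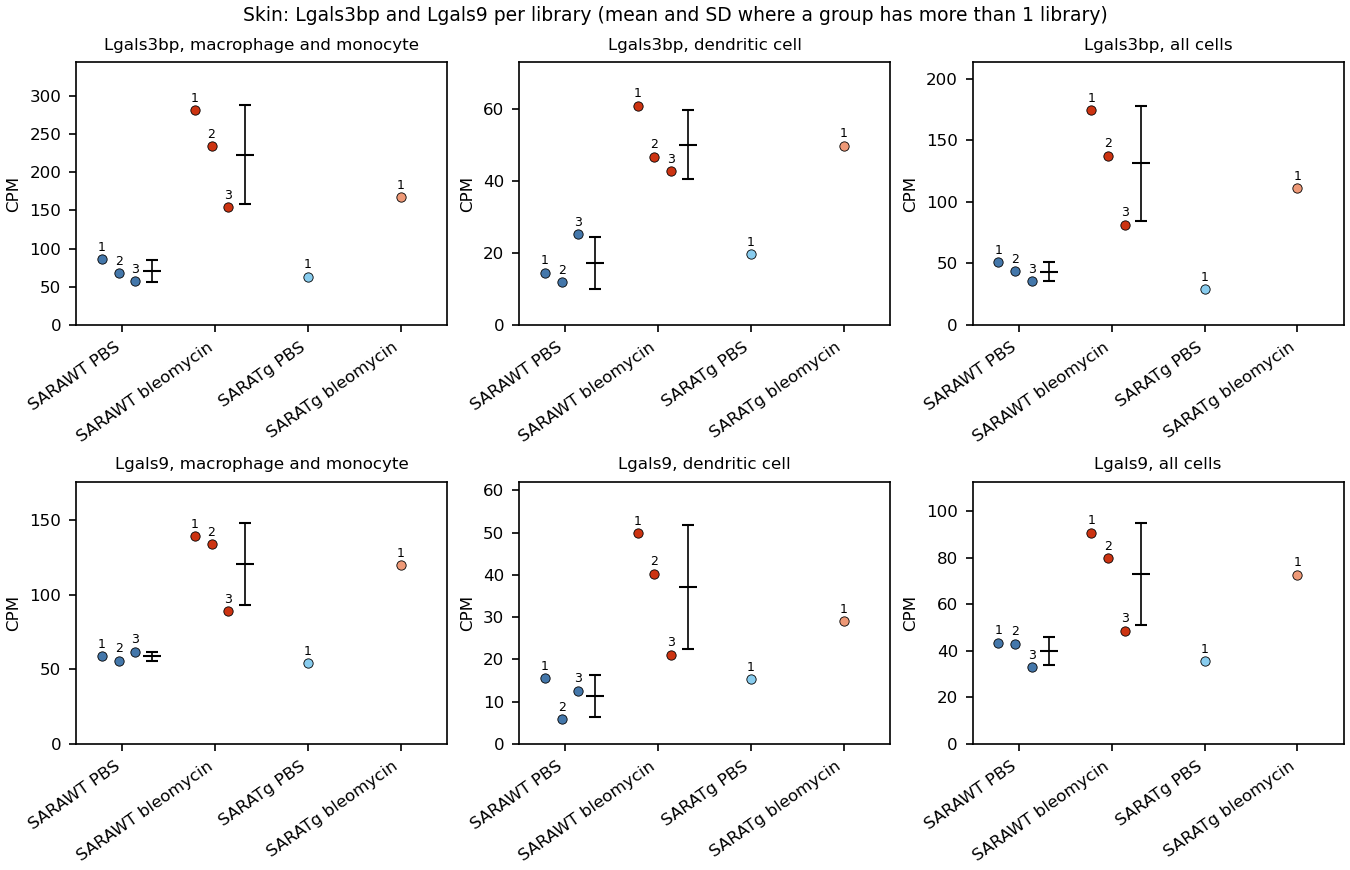
Lgals3bp and Lgals9 in CPM (vertical axes, linear from 0) in skin cell classes, 1 point per library, by genotype and treatment, with the mean and SD of SARAWT groups beside the points. Lgals3bp in macrophages lies between 57.1 and 85.9 CPM in SARAWT PBS and between 154 and 282 CPM in SARAWT bleomycin libraries, and Lgals9 between 55.9 and 61.9 CPM and between 88.9 and 139 CPM.

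The replicate numbers met the criterion for pairing in 3 of these sums, although numbers 1 and 2 were not clearly separated from each other and the numbers also follow the gene list used for counting and the sex of the cells (Xist), and the fit with the replicate number as a block called Lgals3bp and Lgals9. Same-numbered SARAWT libraries deviated together over all cells, in macrophages and in stroma, with every pair's correlation above 0.1. With the block, Lgals3bp passed over all cells (log2 fold change 1.70 ± 0.19 SE, edgeR adjusted p = 0.0187, 3.9% of genes called) and in macrophages (1.72 ± 0.19 SE, edgeR adjusted p = 0.0189, 0.471% of genes called), and Lgals9 passed over all cells (0.99 ± 0.18 SE, edgeR adjusted p = 0.0451). In dendritic cells, where 1 pair's correlation was below 0.1, the block fit called Lgals3bp, Lgals9 and Lgals7 (2.48% of genes called), and in T cells it called Lgals7 alone (2.88% of genes called). The Lgals7 log2 fold changes with the block were 3.51 in dendritic cells and -3.36 in T cells. Dendritic cell Lgals7 was at 108 CPM in bleomycin 3 and at 3.70 CPM or less in the other SARAWT libraries, and T cell Lgals7 at 138 CPM in PBS 3 and at 12.9 CPM or less in the others, so that 1 library set each value. Without the libraries labelled PBS 1 and PBS 3, which leaves PBS 2 as the lone PBS library, no member passed in a class, which says little with so few controls. Macrophage Lgals3bp then had a log2 fold change of 1.83 ± 0.42 (SE) and an edgeR adjusted p of 0.247, and the Lgals3bp values were 2.17 in dendritic cells and 1.26 in stroma. Lgals9 had log2 fold changes of 1.21 in macrophages, 2.73 in dendritic cells and 3.00 in endothelial cells, and Lgals1 had 2.23 in endothelial and 0.77 in mural cells. Lgals3 had 0.88 in macrophages, 0.38 in dendritic cells and 1.01 in stroma. Keratinocytes had log2 fold changes of 0.04 for Lgals3 and 0.46 for Lgals7. Muscle cells, T cells, mast cells and innate lymphoid cells could not be fitted, since PBS 2 held under 10 of each.

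Lgals3, the chimeric galectin, had no common direction, with 6 of 11 classes above 0. Macrophages had 993, 1538 and 2261 CPM with PBS and 2183, 2637 and 3033 CPM with bleomycin, and the highest PBS library exceeded the lowest bleomycin library (log2 fold change 0.75 ± 0.35 SE, edgeR adjusted p = 0.540). Dendritic cells had 1169, 1636 and 1528 CPM with PBS and 1938, 2035 and 2027 CPM with bleomycin, without overlap (log2 fold change 0.55 ± 0.17 SE, edgeR adjusted p = 0.296). In that class 8.11% of genes were higher in each bleomycin library. Stroma had 339, 701 and 1394 CPM with PBS and 1210.1, 1288 and 1691 CPM with bleomycin (log2 fold change 0.74 ± 0.49 SE, edgeR adjusted p = 0.381). The stroma values of the PBS group were far apart and overlapped those of the bleomycin group. Muscle cells and precursors had the highest log2 fold change, 1.96 ± 0.71 (SE, edgeR adjusted p = 0.258). Their groups did not overlap, an order that 20.9% of genes had in that class. Innate lymphoid and natural killer cells went the other way, with 779 and 616 CPM in PBS 1 and 3 and 345, 293 and 105 CPM with bleomycin (log2 fold change -1.46 ± 0.51 SE, edgeR adjusted p = 0.980). Keratinocytes had 1257, 1850.05 and 1129.8 CPM with PBS and 2096, 2392 and 816 CPM with bleomycin, which overlapped (log2 fold change 0.43 ± 0.38 SE, edgeR adjusted p = 0.733). Over all cells, Lgals3 was at 849, 1376 and 1587 CPM with PBS and 1782, 2012 and 1978 CPM with bleomycin (log2 fold change 0.72 ± 0.28 SE, edgeR adjusted p = 0.236), and macrophages held 35.7%, 29.9% and 30.2% of its UMIs with PBS and 49.0%, 51.9% and 48.6% with bleomycin.

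For Lgals7 the sum over cells and the level within keratinocytes had opposite directions. Over all cells it was at 419, 444 and 947 CPM with PBS and 164, 284 and 146 CPM with bleomycin, lower in each bleomycin library (log2 fold change -1.50 ± 0.44 SE, edgeR adjusted p = 0.141). This order was common, since 17.4% of all 15334 genes were lower in each bleomycin library. Keratinocytes made up 3.04%, 2.30% and 6.47% of kept cells with PBS and 1.35%, 2.08% and 0.81% with bleomycin. Within keratinocytes Lgals7 was at 7392, 10924 and 7766 CPM with PBS and 17075, 13336 and 10992 CPM with bleomycin. The lowest bleomycin library was just above the highest PBS library, an order that 5.41% of genes had in keratinocytes. The log2 fold change was 0.77 ± 0.24 (SE, edgeR adjusted p = 0.315). Lgals8 was at 36.3, 41.3 and 25.3 CPM over all cells with PBS and 36.2, 38.4 and 30.4 CPM with bleomycin, with overlap (log2 fold change 0.19 ± 0.20 SE, edgeR adjusted p = 0.657), and in macrophages at 54.1, 66.2 and 47.1 CPM against 51.1, 60.8 and 50.6 CPM.

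The SARATg skin arm had 1 library per treatment, and its tests assume that a lone SARATg library varies like the SARAWT libraries. In SARATg stroma, Lgals1 was at 1149.8 CPM with PBS, below each SARAWT PBS library, and at 8343 CPM with bleomycin, above each SARAWT bleomycin library. How many of all genes had this order in the SARATg libraries was not counted. The log2 fold change between these libraries was 2.51 ± 0.47 (SE, edgeR adjusted p = 0.0319, 6.12% of 13556 genes called), and its difference from the SARAWT change was 1.07 ± 0.52 (SE) on the log2 scale (edgeR adjusted p = 0.568), so a larger effect in SARATg stroma was not shown. The thinned share of stroma cells with a Lgals1 UMI was 63.5% with PBS and 95.7% with bleomycin. In SARATg macrophages, Lgals3bp was at 62.9 CPM with PBS and 168 CPM with bleomycin (log2 fold change 1.43 ± 0.30 SE, edgeR adjusted p = 0.393), and Lgals9 at 54.0 and 120.02 CPM (log2 fold change 1.16 ± 0.34 SE, edgeR adjusted p = 0.643). Both values had the direction seen in SARAWT macrophages.

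In keratinocytes, Lgals3 was at 2986 CPM in the SARATg PBS library, above the 3 SARAWT PBS libraries, a log2 difference of 1.78 ± 0.36 (SE, edgeR adjusted p = 0.00580, 3.05% of 10683 genes called). The fit had the gene list as a covariate, so its log2 differences are not plain differences of the CPM values. For Lgals3 and Lgals7 they are larger than the difference in CPM from any SARAWT PBS library. The SARA levels of PBS 1 and PBS 3 went against their label, so the Lgals3 difference rests on controls in doubt, and no fit was made without them. PBS 2, the remaining control, had 1850.05 CPM and was female by Xist (651 CPM), as was PBS 1 (688 CPM). The SARATg PBS library was male (0.196 CPM), so genotype and sex cannot be told apart against PBS 1 and PBS 2. PBS 3 was male too (0.202 CPM). In skin the gene list follows sex, so the covariate stands for both. PBS 3 is the lone SARAWT PBS library of the shorter list, and its Zfyve9 level (621 CPM) went against its label. Keratinocyte Lgals7 was at 12592 CPM in the SARATg PBS library, with a log2 difference of 0.86 ± 0.27 (SE) from SARAWT in the same fit. Keratinocyte Lgals1 went from 20.8 CPM with PBS to 61.7 CPM with bleomycin in SARATg, whereas the SARAWT groups given above overlapped. The difference of treatment effects between genotypes was 2.83 ± 0.76 (SE) on the log2 scale (edgeR adjusted p = 0.0962, 0.786% of genes called). Among 57 pairs of member and class, 1 passed for bleomycin against PBS in SARATg (15 at an unadjusted p under 0.05, 1.35% of all gene and class pairs called), 1 for SARATg against SARAWT with PBS (7 unadjusted, 0.44% called) and 0 for the difference of treatment effects (3 unadjusted, 0.168% called). Over all cells 0 of 6 passed in each of these comparisons by edgeR, with 3, 0 and 0 at an unadjusted p under 0.05 (0.0498%, 0.0553% and 0% of genes called), and DESeq2 was not run for them.

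Aristolochic acid against vehicle in SARAWT kidney was compared with all 6 libraries first. By edgeR, 0 of 45 pairs of member and class passed in 11 classes (5 at an unadjusted p under 0.05, 27 above 0), and 0 of 6 members passed over all cells (1 at an unadjusted p under 0.05, 0% of 16055 genes called, 1213 of them unadjusted). DESeq2 called 0 members over all cells (0.498% of genes called) and 1 by class, Lgals3 in innate lymphoid and natural killer cells (0.226% of genes called). By class, genes under an unadjusted p of 0.05 in edgeR ran from 165 of 7330 (dendritic cells) to 998 of 7021 (intercalated cells). The edgeR share of genes called was 0.0135% in endothelial cells, 0.0285% in intercalated cells and 0% in the other classes. The library labelled vehicle 3 lay with the AA libraries for most members, as it did for Havcr1 and the share of T cells, and the log2 fold changes of SARAWT kidney are given as well without it. Since this library was singled out with its member values known, the adjusted p-values without it are a description and support no call. Of the SARAWT kidney libraries vehicle 2 was female by Xist and the others male.

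The fit over all kidney cells had wide errors, with an SE of 1.18 for Lgals3, and a missed threshold there says little. Lgals3 over all cells was at 22.3, 62.7 and 563 CPM with vehicle and 603, 151 and 419 CPM with AA. Vehicle 1 and 2 were below and vehicle 3 was within the AA range (log2 fold change 0.76 ± 1.18 SE, edgeR adjusted p = 0.740). Without vehicle 3 the log2 fold change was 3.13 ± 0.73 (SE, edgeR adjusted p = 0.0388, 22.1% of genes called). Proximal tubule cells, the cells that take up aristolochic acid, had 2.22, 5.84 and 54.3 CPM of Lgals3 with vehicle and 60.9, 24.5 and 45.3 CPM with AA. The log2 fold change there was 0.89 ± 1.07 (SE, edgeR adjusted p = 0.731) and without vehicle 3 it was 3.29 ± 0.51 (SE, edgeR adjusted p = 0.0330, 4.04% of genes called). The share of proximal tubule cells with a Lgals3 UMI was 1.11%, 1.80% and 20.4% with vehicle and 20.9%, 6.06% and 15.9% with AA, or 0.168%, 0.287% and 3.25% against 4.30%, 1.53% and 2.78% after thinning to 1000 UMIs. These thinned shares were below those of B cells, a class known for little Lgals3 (5.04% to 14.9%). The summed macrophage markers in proximal tubule cells were 34.4, 35.6 and 102 CPM with vehicle and 93.0, 37.7 and 114 CPM with AA, and the T cell markers 15.0, 9.94 and 46.2 CPM against 58.3, 52.9 and 88.6 CPM. Both lists were at 1.59% or less of their level in their own class. Their part in the result was not tested.

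Macrophages had 542, 495 and 1309.9 CPM of Lgals3 with vehicle and 1259, 875 and 1119 CPM with AA (log2 fold change 0.42 ± 0.42 SE, edgeR adjusted p = 0.866). Vehicle 3 was the highest of the 6, and without it the log2 fold change was 1.11 ± 0.19 (SE, edgeR adjusted p = 0.0392, 3.66% of genes called). The thick ascending limb, a distal tubule segment, had 163, 99.4 and 669 CPM with vehicle and 741, 349 and 1043 CPM with AA (log2 fold change 1.29 ± 0.67 SE, edgeR adjusted p = 0.573). Without vehicle 3 its log2 fold change was 2.70 ± 0.45 (SE, edgeR adjusted p = 0.0172, 1.98% of genes called). Innate lymphoid and natural killer cells had the opposite order, with 160.04, 254 and 320.5 CPM with vehicle and 73.6, 88.2 and 23.7 CPM with AA. All 3 AA libraries were below all 3 vehicle libraries, vehicle 3 included, and the log2 fold change was -1.98 ± 0.39 (SE, edgeR adjusted p = 0.547), or -1.64 ± 0.38 without vehicle 3 (edgeR adjusted p = 0.0517). In this class 9.06% of 3101 genes were lower in each AA library, Lgals1 also among them. In collecting duct principal cells, where Lgals3 was highest, only AA 1 held at least 10 cells, with 1711 CPM against 1069.8, 1304 and 1248 CPM with vehicle, and no test was made.

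Lgals3bp had the same split within the vehicle group. Over all cells it was at 7.29, 10.5 and 65.3 CPM with vehicle and 58.5, 34.3 and 69.4 CPM with AA (log2 fold change 0.86 ± 0.85 SE, edgeR adjusted p = 0.613), and without vehicle 3 the log2 fold change was 2.49 ± 0.34 (SE, edgeR adjusted p = 0.0140). Proximal tubule cells had 5.16, 7.53 and 48.2 CPM with vehicle and 57.9, 35.2 and 98.997 CPM with AA (log2 fold change 1.46 ± 0.86 SE, edgeR adjusted p = 0.556). Without vehicle 3 the tubule value was 3.14 ± 0.41 (SE, edgeR adjusted p = 0.0266). Macrophages had 76.7, 64.7 and 115 CPM with vehicle and 98.0, 76.9 and 125 CPM with AA, overlapping groups, although the lowest AA library was just above vehicle 1 and 2 (log2 fold change 0.19 ± 0.29 SE, edgeR adjusted p = 0.918). Without that library the macrophage value was 0.55 ± 0.22 (SE, edgeR adjusted p = 0.178).

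**Figure D4:**
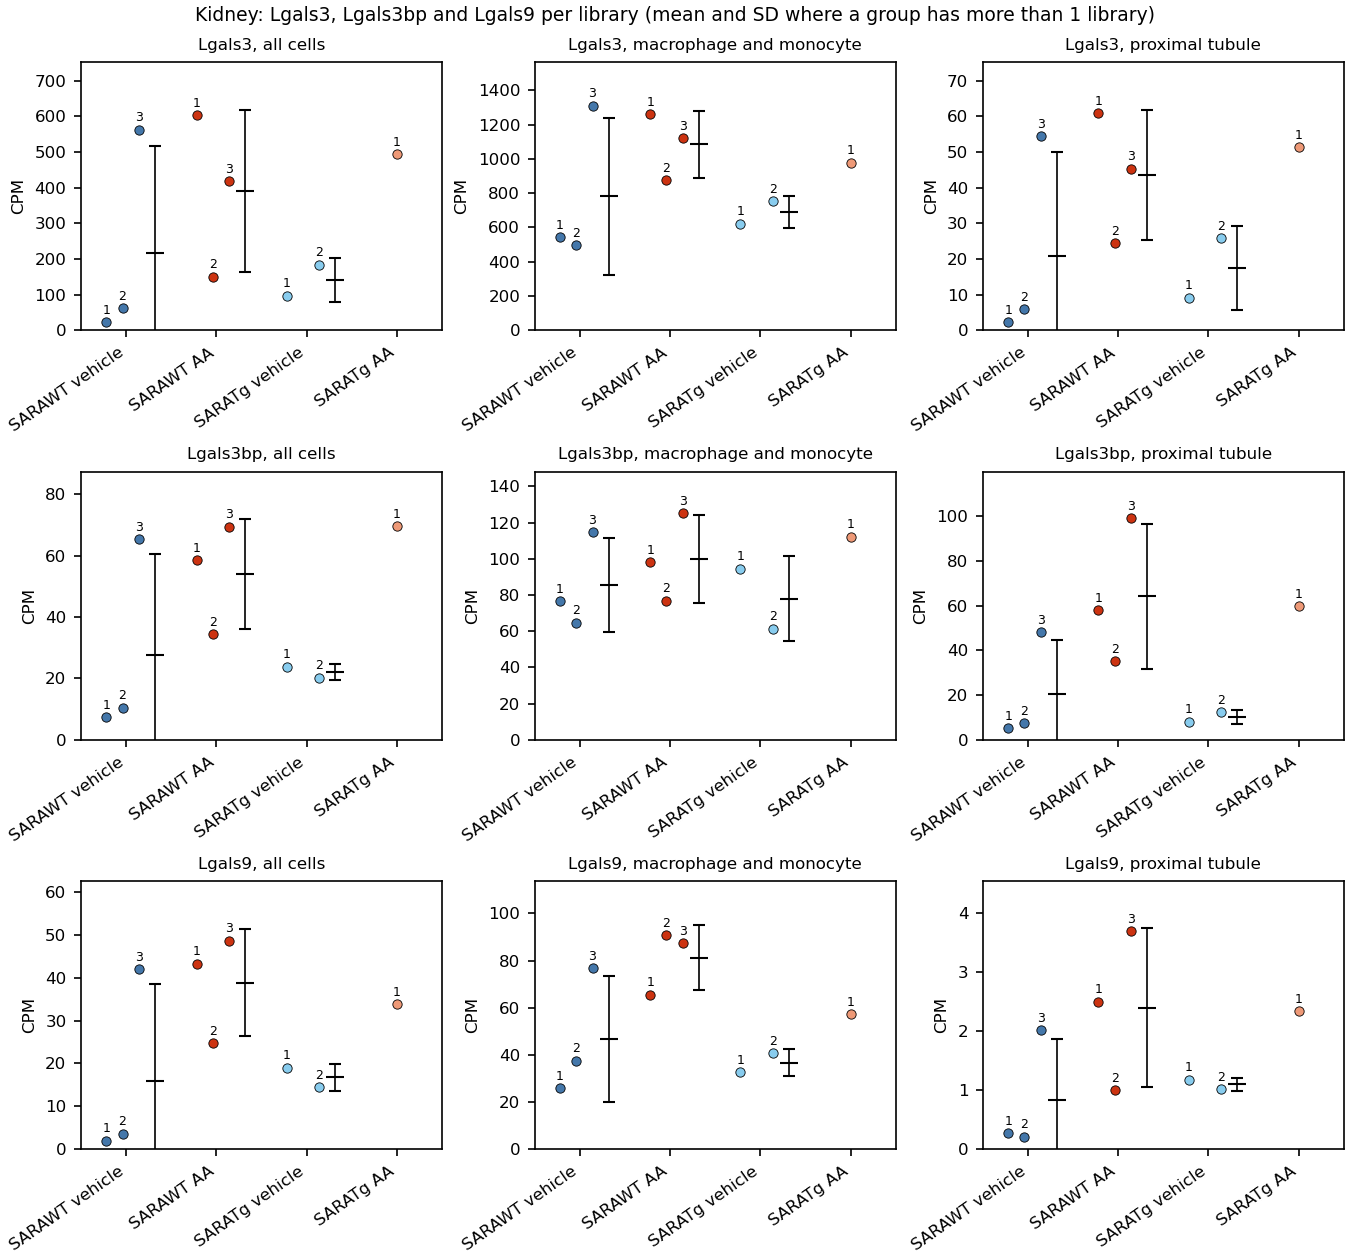
Lgals3, Lgals3bp and Lgals9 in CPM (vertical axes, linear from 0) over all kidney cells, in macrophages and in proximal tubule, 1 point per library, by genotype and treatment, with the mean and SD of groups of at least 2 libraries beside the points and SD bars cut at 0. In proximal tubule Lgals3bp is at 5.16 and 7.53 CPM in vehicle 1 and 2 and at 48.2 CPM in the library labelled vehicle 3, which lies within the range of the AA libraries (35.2 to 98.997 CPM).

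Lgals9 over all cells was at 2.02, 3.62 and 42.0 CPM with vehicle and 43.2, 24.7 and 48.6 CPM with AA (log2 fold change 1.19 ± 1.12 SE, edgeR adjusted p = 0.598). Without vehicle 3 the log2 fold change was 3.69 ± 0.39 (SE, edgeR adjusted p = 0.00875). T cells, in which the Lgals9 levels of the groups overlapped (49.1, 58.1 and 60.6 CPM with vehicle and 55.9, 48.5 and 56.7 CPM with AA), made up 2.74%, 3.49% and 42.8% of kept cells with vehicle and 49.4%, 41.6% and 58.1% with AA. Macrophages had 25.9, 37.5 and 76.9 CPM with vehicle and 65.5, 90.9 and 87.5 CPM with AA (log2 fold change 0.72 ± 0.41 SE, edgeR adjusted p = 0.825), and without vehicle 3 the log2 fold change was 1.37 ± 0.24 (SE, edgeR adjusted p = 0.0392). The summed T cell markers in macrophages were 2.07, 21.9 and 108 CPM with vehicle and 110, 78.3 and 104 CPM with AA, and their part in the result was not tested. Proximal tubule Lgals9 was at 0.271, 0.213 and 2.02 CPM with vehicle and 2.50, 1.003 and 3.70 CPM with AA (log2 fold change 1.37 ± 0.997 SE, edgeR adjusted p = 0.594), and the value without vehicle 3 was 3.04 ± 0.67 (SE, edgeR adjusted p = 0.0584).

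Lgals1 over all cells was at 152, 141 and 405 CPM with vehicle and 412, 279 and 424 CPM with AA (log2 fold change 0.55 ± 0.48 SE, edgeR adjusted p = 0.569), and without vehicle 3 the log2 fold change was 1.19 ± 0.29 (SE, edgeR adjusted p = 0.0428). Macrophages had 194, 231 and 569.6 CPM with vehicle and 391, 423 and 421 CPM with AA (log2 fold change 0.26 ± 0.43 SE, edgeR adjusted p = 0.927). Vehicle 3 was again the highest, and without it the value was 0.99 ± 0.16 (SE, edgeR adjusted p = 0.0359). The summed T cell markers in macrophages, a list of a class with more Lgals1, were at 2.07 and 21.9 CPM in vehicle 1 and 2 and at 78.3 to 110 CPM in the other 4 libraries. The proximal tubule markers there were at 251, 255 and 78.6 CPM with vehicle and 41.6, 354 and 61.0 CPM with AA, and the part of both lists in the result was not tested. T cells, by contrast, had 932, 895 and 606 CPM with vehicle and 687, 473 and 566 CPM with AA, where vehicle 1 and 2 were the highest. The cells that supplied the Lgals1 UMIs of the sort differed as well. Proximal tubule cells held 85.4% and 71.5% of them in vehicle 1 and 2 and 12.8% in vehicle 3, and T cells held 44.5%, 46.5% and 56.5% in the AA libraries. Proximal tubule Lgals1 itself was at 143, 128 and 189.9 CPM with vehicle and 173, 174 and 227 CPM with AA (log2 fold change 0.13 ± 0.22 SE, edgeR adjusted p = 0.804), and the value was 0.31 ± 0.22 on the log2 scale without vehicle 3 (edgeR adjusted p = 0.382).

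Lgals8 was at 69.2, 45.9 and 29.2 CPM over all cells with vehicle and 31.6, 41.8 and 40.8 CPM with AA, and the groups overlapped (log2 fold change -0.49 ± 0.40 SE, edgeR adjusted p = 0.552). In proximal tubule it was at 71.6, 47.9 and 35.9 CPM with vehicle and 46.4, 50.8 and 62.3 CPM with AA (log2 fold change -0.16 ± 0.30 SE, edgeR adjusted p = 0.829). Without vehicle 3 these values were -0.77 ± 0.32 (SE, edgeR adjusted p = 0.123) over all cells and -0.37 ± 0.27 (SE, edgeR adjusted p = 0.406) in proximal tubule. Kidney Lgals7 passed over all cells without vehicle 3, at levels of at most 1.96 CPM. In all, 5 of 6 members over all cells and 6 pairs of member and class passed without vehicle 3, where 22.1% of genes over all cells and 3.66%, 4.04% and 1.98% of those in macrophages, proximal tubule and thick ascending limb did. When the library labelled AA 1 was left out as well, 3 members passed over all cells (Lgals3bp, Lgals7 and Lgals9, 5.57% of genes called). By class 5 pairs then passed, namely Lgals9 in macrophages (1.18% of genes called), Lgals3 in the thick ascending limb (2.95%), Lgals3 in innate lymphoid and natural killer cells (1.88%) and Lgals1 and Lgals3 in dendritic cells (5.53%), the last with a single AA library of at least 10 dendritic cells.

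**Figure D5:**
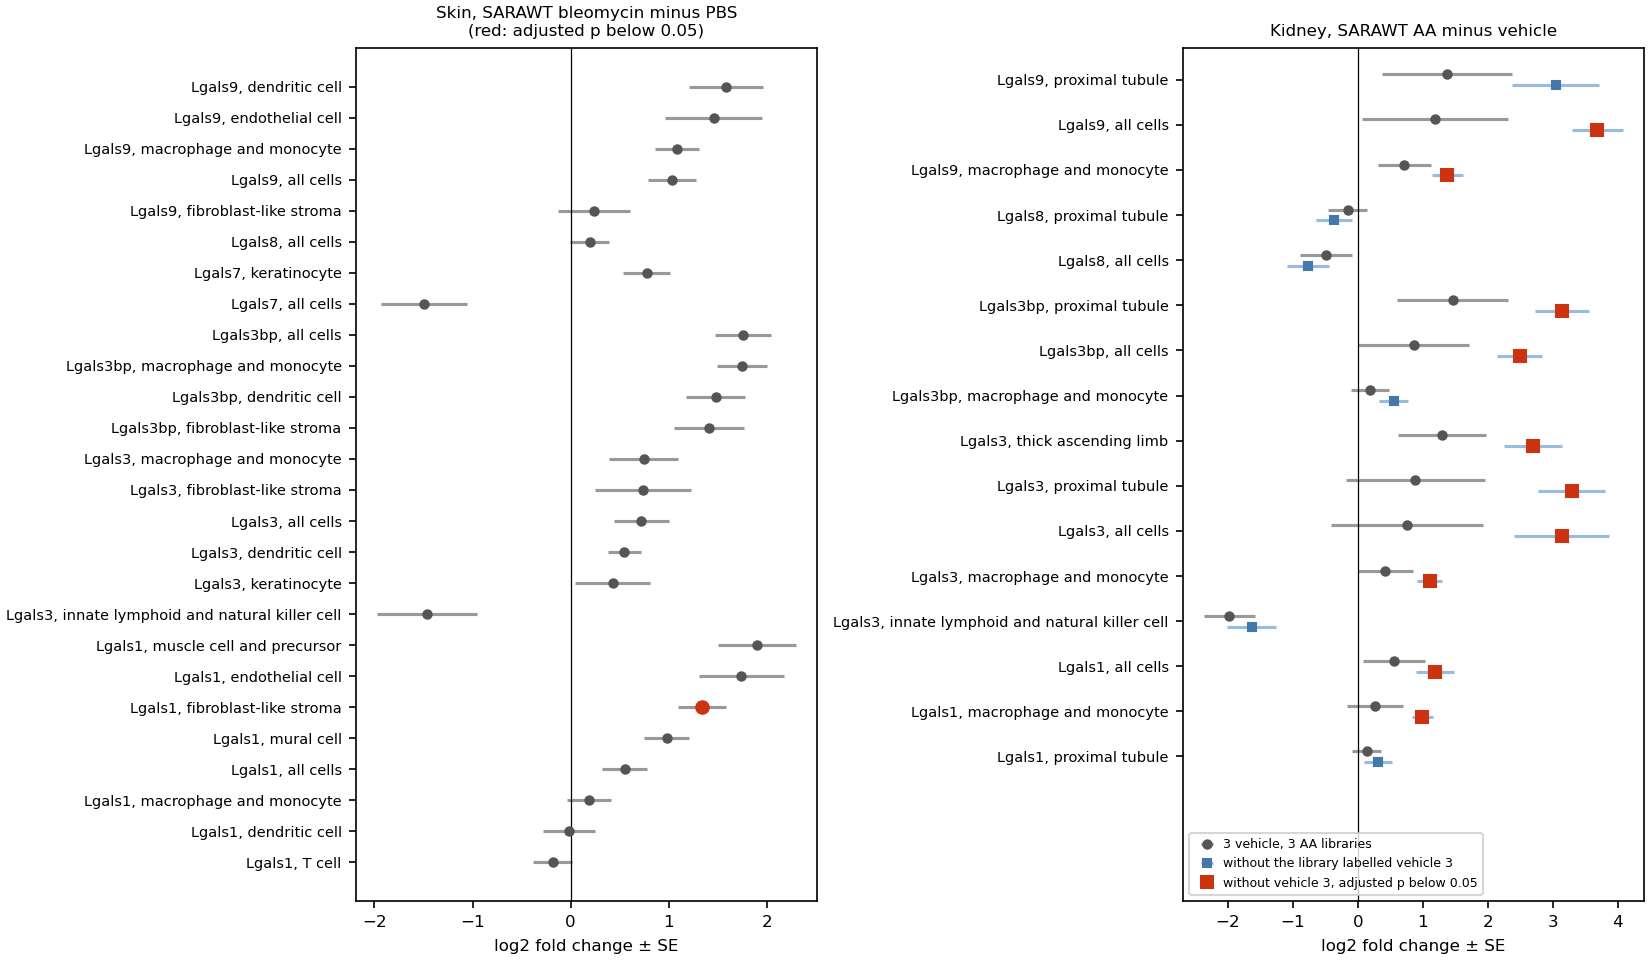
Log2 fold changes of the members (horizontal axis) with their SE as bars, for bleomycin against PBS in SARAWT skin and for aristolochic acid against vehicle in SARAWT kidney with and without the library labelled vehicle 3. In skin the stroma Lgals1 value is 1.34, and in kidney the proximal tubule values of Lgals3 and Lgals3bp move from 0.89 and 1.46 with that library to 3.29 and 3.14 without it.

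In SARATg kidney, Lgals3 in proximal tubule was at 9.17 and 25.9 CPM in the vehicle libraries and 51.3 CPM in the library labelled SARATg AA 1, and Lgals3bp at 8.12 and 12.4 CPM against 59.6 CPM. Macrophage Lgals3 was at 622 and 754 CPM with vehicle and 978 CPM with AA, and macrophage Lgals1 at 153 and 228 CPM against 503 CPM. The AA library had the highest value in each of these, an order whose share among all genes was not counted. It was female by Xist (1322 CPM) and both vehicle libraries were male (0.264 and 0.478 CPM), so that treatment and sex cannot be told apart in SARATg kidney. The Zfyve9 level of that AA library, given above, was also within the SARAWT range, and its genotype label is in doubt. In a fit of all 9 libraries, which includes the library labelled vehicle 3, edgeR called 0 of 56 pairs of member and class for AA against vehicle in SARATg (10 at an unadjusted p under 0.05, 0.0157% of gene and class pairs called), 0 for SARATg against SARAWT with vehicle (5 unadjusted, 0.08% called) and 0 for the difference of treatment effects (9 unadjusted, 0.0896% called), for which DESeq2 also called 0. Over all cells 0 of 6 members were called in each of the 3, with 1, 0 and 0 at an unadjusted p under 0.05.

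The genes around the galectins were counted in the same fits. In skin, glycoprotein partners of galectins such as integrins, Cd44 and Lamp1 gave 122 tests of 15 genes over classes and the sum of all cells, enzymes that build or cap galectin-binding glycans 77 tests of 10 genes, lysosome and autophagy partners 40 tests of 6 genes, and other galectins 12 tests of 6 genes. None passed in edgeR, with 20, 9, 2 and 5 at an unadjusted p under 0.05, and DESeq2 was not run for these lists. The smallest adjusted p-values were all in stroma, where 2746 of all 11092 genes were under an unadjusted p of 0.05 in edgeR. There Trim16, a galectin-3 partner in the removal of damaged lysosomes, had a log2 fold change of -1.45 ± 0.30 (SE, edgeR adjusted p = 0.0508). Mgat4b, a branching enzyme of N-glycans, had 1.10 ± 0.24 (SE, edgeR adjusted p = 0.0542), and Itgb1, an integrin chain that galectin-1 binds, had 0.76 ± 0.18 (SE, edgeR adjusted p = 0.0612). In kidney the same lists gave 132, 81, 47 and 10 tests with none past the adjusted threshold in edgeR and 16, 9, 3 and 2 at an unadjusted p under 0.05. The numbers of all kidney genes under that p are given above.

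The pattern of each member over cell classes was set beside that of 14376 other genes across 26 cell classes of both tissues, as Pearson correlations of log2(mean CPM + 1). The 26 classes include the Schwann cell gate, skin melanocytes and kidney mural cells, which were left out above. The classes share libraries, depth and free RNA, and the values are a description. Vim (0.83) and Fam126a (0.82) were among the genes most like Lgals1, where Vim encodes the intermediate filament of mesenchymal cells. Krtdap, Krt17 and Krt79, genes of keratinocytes, were most like Lgals7 (0.92, 0.92 and 0.91). Slc26a2, Hk2 and Npc1 were most like Lgals3 (0.74, 0.74 and 0.73), and C330007P06Rik, Fbxo25 and Tpp1 most like Lgals8 (0.76, 0.75 and 0.74). Rac1, Nin and Tgfbr2, the last a TGF-beta receptor chain, were most like Lgals9 (0.85, 0.85 and 0.84), and Cers5, Med15 and Gbp3 most like Lgals3bp (0.78, 0.77 and 0.75). Among the members themselves, Lgals3 and Lgals7 had the highest correlation (0.55), followed by Lgals1 and Lgals9 (0.47), whereas Lgals1 and Lgals3 had 0.039.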

How the data were processed

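Sorted GFP+ cells of mouse skin (8 libraries) and kidney (9 libraries) were sequenced by the authors with a droplet 3′ kit. Per the labels, the notes name mm10, Cell Ranger 3.0.2 and Seurat 2.3.4. The deposited values used here are filtered matrices of UMI counts per gene and cell, not normalized. Counts were made on 2 gene lists (32286 and 31053 genes), and the 30406 shared genes were used. Doublet removal by the authors is not given in the sources used here, and no doublet caller was run, but the cells with the highest 5% of UMIs were left out in an alternative.

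A cell was kept if 200 genes or more were detected and mitochondrial UMIs did not exceed 20% in skin or 50% in kidney. A cell entered a class when at least 2 markers of the class were detected and its score was at least 0.1 and at least 1.5 times the next score. Cells with similar scores for several classes stayed outside. A cell with some markers of another class could still pass, so mixed cells may remain. Classes are named from these markers alone and are "like" the named type. UMIs were summed per library and class (at least 10 cells), scaled to CPM, and tested with edgeR 4.0.16 (TMM, filterByExpr, glmQLFTest, 2-sided, Benjamini-Hochberg over all genes of a fit). SARAWT groups were compared alone, and SARATg was fitted with all groups of a tissue, with the gene list as a covariate in skin. DESeq2 1.42.0 was an alternative, as were other size factors, no low-count filter, a stricter gate and cell filter, 30 cells, no shared barcodes, a replicate block and leaving out each library. Fits were tested on simulated data. Ranges of depth (UMIs per library) are in the report, and the precision of shares of cells covers counting error only. Tables and figures were made in R 4.3.3 and Python 3.11.15 with scipy 1.17.1 for the exact test and numpy 2.4.6, matplotlib 3.10.9 and pandas 2.3.3 for the rest.

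The 6 members and the gene lists around them were chosen with earlier results of these data known. Named by rule were the members in each fit, the list genes past an adjusted p of 0.05 and, for each member, the 3 genes with the most similar pattern over classes, 1 of which is not reported here. Also, 3 genes of the lists that missed the threshold (Trim16, Mgat4b and Itgb1) were named after their values were seen. Whether replicate numbers pair the SARAWT libraries was checked by correlating deviations from group means. The same-numbered pairs had r = 0.257, 0.129 and 0.527 over all skin cells, 0.284, 0.239 and 0.550 in skin macrophages and 0.187, 0.217 and 0.359 in skin stroma. Pairs of different numbers reached 0.213 over all cells and 0.286 in macrophages, both between numbers 1 and 2. Skin numbers 1 and 2 share the longer gene list and number 3 the shorter. In kidney, 1 of 3 pairs was negative over all cells (-0.393), in macrophages (-0.217) and in proximal tubule (-0.111), and numbers were not taken to pair the kidney libraries.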

Additional observations from a re-analysis of the deposited data

How the results depend on the processing

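Of 391 refits of the 26 skin values given with a test, 340 kept their direction and their side of the threshold, 34 newly passed it, 8 no longer passed and 9 changed sign. All 8 that no longer passed were refits of stroma Lgals1, the only skin value that had passed. Of 262 refits of 16 kidney values, 239 kept both, 18 newly passed and 5 changed sign. A loss was not possible there, because no kidney value had passed. The cause of each change was not tested.

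For bleomycin in SARAWT skin by class, 1 call became 10 with DESeq2, 11 without a low-count filter, 6 with the replicate block, 3 with at least 3 markers, and 0 without shared barcodes, without the cells of highest UMIs, or without the libraries labelled PBS 1 and PBS 3 (an alternative chosen after seeing the data, with 1 PBS library left). The share of all genes called per class was 0% to 2.64% in the reported fits, 0.0387% to 8.43% with DESeq2, 0.211% to 4.91% without a filter and 0.0427% to 9.07% with the block. DESeq2 called Lgals1 in stroma, mural, endothelial and muscle cells, Lgals3bp in macrophages, dendritic cells and stroma, Lgals9 in macrophages and dendritic cells and Lgals7 in macrophages. The summed keratinocyte markers in macrophages were 43.1, 19.4 and 23.7 CPM with PBS and 11.3, 15.4 and 7.73 CPM with bleomycin, and their part in that call was not tested. Leaving out 1 library gave 0 to 6 calls, 6 without PBS 3, 2 without PBS 1 and 0 without each of the other 4. In muscle cells, which gave 2 of these calls without PBS 3 and 1 without PBS 1, PBS 2 held 7 cells and the fit had a lone PBS library. Over all skin cells, 0 calls became 3 with DESeq2 (8.61% of genes called), 1 without a filter (1.5%), 2 with the replicate block (3.9%), 1 without the cells of highest UMIs (0.653%), and 0 to 1 on leaving out 1 library (1 without PBS 3, 6.22%). Genes called in stroma numbered 293 in the reported fit, 935 with DESeq2, 1060 with the block and 0 without bleomycin 1. For AA in kidney by class, 0 calls became 1 with DESeq2, 5 without a filter, 5 without the libraries labelled AA 1 and vehicle 3 (chosen after seeing the data), and 0 to 6 on leaving out 1 library (6 without vehicle 3). The share of genes called per class was 0.0136% to 0.684% with DESeq2 and 0% to 2.29% without a filter. Over all kidney cells they became 3 without that pair and 0 to 5 on leaving out 1 library (5 without vehicle 3). The replicate block, with which the kidney samples share only a number, gave no call there. The difference of treatment effects between genotypes in skin had 1 call with at least 30 cells, Lgals1 in keratinocytes (3.57 ± 0.62, edgeR adjusted p = 0.0143, 242 of 12009 genes called).

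Dendritic cell Lgals1 in skin (-0.02) became 0.10 without shared barcodes, 0.55 without PBS 1 and PBS 3, and -0.24 to 0.19 on leaving out 1 library (0.19 without PBS 1, 0.04 without bleomycin 1, 0.09 without bleomycin 3). Stroma Lgals9 (0.24) became -0.12 without the cells of highest UMIs, -0.17 without PBS 1 and PBS 3, and -0.10 (without bleomycin 1) to 0.56 on leaving out 1 library. Lgals8 over all skin cells became -0.080 without PBS 1 and PBS 3. In kidney, Lgals3 over all cells (0.76) became -0.11 without AA 1 and vehicle 2. On leaving out 1 library, Lgals8 over all kidney cells ranged from -0.77 to 0.016 (without vehicle 1), macrophage Lgals1 from -0.052 (without vehicle 1) to 0.99, proximal tubule Lgals1 from -0.023 (without vehicle 2) to 0.31 and proximal tubule Lgals8 from -0.37 to 0.22 (without vehicle 1).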
